A study of Mus musculus with 2 samples.

Results

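The Hox clusters were taken as every gene symbol in the deposited feature lists made of Hox, a cluster letter from a to d and a number. There were 39 such genes among 25906: 11 in the Hoxa cluster on chromosome 6, 10 in Hoxb on chromosome 11, 9 in Hoxc on chromosome 15 and 9 in Hoxd on chromosome 2. Hox genes encode homeodomain transcription factors that give cells of the trunk and limbs a position along the head-to-tail axis. Within a cluster the genes stand in the order of their numbers, and low numbers are typically expressed towards the head and high numbers towards the tail. Genes with the same number in different clusters are paralogues, and cultured fibroblasts are known to keep the Hox pattern of the site they came from.

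The study profiled 2 clones of mouse induced myogenic progenitor cells (iMPCs), a proliferating culture with Pax7-expressing progenitors and differentiating muscle cells. Both clones were made from mouse embryonic fibroblasts (MEFs) by overexpressing Myf6, a muscle regulatory transcription factor, together with forskolin (5 µM), RepSox (5 µM) and CHIR99021 (3 µM), and were grown in the same compounds with bFGF (10 ng/mL). One library came from a clone labelled MyoD-WT and the other from a clone labelled MyoD-KO, both at passage 4 and both carrying the strain label Myod1tm1Jae. MyoD is the muscle regulatory factor encoded by Myod1. About 12000 cells of each clone were used for droplet sequencing of the 3′ ends of transcripts, and the comparison asks how the clone labelled MyoD-KO differs from the clone labelled MyoD-WT. With 1 clone and 1 library per genotype, genotype, clone of origin and library cannot be told apart, and no difference below has a replicate check or a p-value.

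The 2 libraries held 8191 and 7670 cell barcodes, of which 7316 (MyoD-WT) and 5638 (MyoD-KO) were kept, with 279006808 and 240970199 transcript counts (UMIs, unique molecular identifiers) and medians of 35515.5 and 40426.5 UMIs per cell. The libraries shared 14 barcodes. Levels are UMIs per 1000000 UMIs of the library or cell group (CPM). UMIs tag transcript ends, so CPM is not divided by gene length. Intervals are exact 95% intervals and cover counting error only. A gene was called higher or lower when its levels differed at least 2-fold with 1 CPM or more on the higher side. Myod1 itself stood at 162 CPM in MyoD-WT and 63.3 CPM in MyoD-KO; tags at the 3′ end can lie outside a deleted part, so this does not check the genotype. Pax7-positive cells had 7 of 8 progenitor markers at 1 CPM or more in MyoD-WT and 8 of 8 in MyoD-KO. This count does not set them apart, as muscle-rich cells, defined below, had 7 of 8 in both libraries. The sum of the 8 markers was higher in muscle-rich cells, 1809 against 724 CPM in MyoD-WT and 4199 against 1426 CPM in MyoD-KO. The sums of 5 endothelial, 5 immune and 4 pluripotency markers stayed at or under 3.93 CPM in every cell group.

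The summed level of the Hox genes was 120 CPM in MyoD-WT and 209 CPM in MyoD-KO, 1.75-fold higher in MyoD-KO (1.72 to 1.77). The clusters did not contribute alike. The Hoxa sum was 18.5 CPM in MyoD-WT and 97.5 CPM in MyoD-KO, 5.26-fold higher (5.11 to 5.42), and the Hoxd sum was 5.39 and 28.4 CPM, 5.26-fold higher (4.97 to 5.57). The Hoxb sum was 42.8 and 36.4 CPM, a ratio of 0.851 (0.827 to 0.874), and the Hoxc sum was 53.0 and 46.9 CPM, a ratio of 0.885 (0.863 to 0.907). Of all Hox UMIs, Hoxc and Hoxb made up 44.3% and 35.7% in MyoD-WT, and Hoxa made up 46.6% in MyoD-KO. Hoxd took the smallest share in both libraries, 4.51% and 13.6%.

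Of the 39 genes, 18 reached 1 CPM in MyoD-WT, 24 in MyoD-KO and 26 in at least 1 of the libraries. Among those 26, 10 were higher in MyoD-KO, where 19.4% of the 12659 genes measured the same way were higher. Another 4 were lower, where 4.48% of the 12659 were lower, and 12 differed by under 2-fold. Their median log2 ratio was 0.48, beside 0.15 over the 12659 genes. The 10 higher genes lay in Hoxa (Hoxa2, Hoxa5, Hoxa7, Hoxa9 and Hoxa10), in Hoxd (Hoxd3, Hoxd4, Hoxd8 and Hoxd9) and in Hoxc (Hoxc10). Among the 4 lower genes were Hoxa4, Hoxc5 and Hoxc8. Scaling by TMM (a trimmed mean of the gene ratios) in place of library totals moved the median of all genes from 0.15 to -0.04, kept the same 10 genes higher and added Hoxb5 to the lower ones. It moved the share of higher calls among all called genes from 81.2% to 71.7%.

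**Figure D1:**
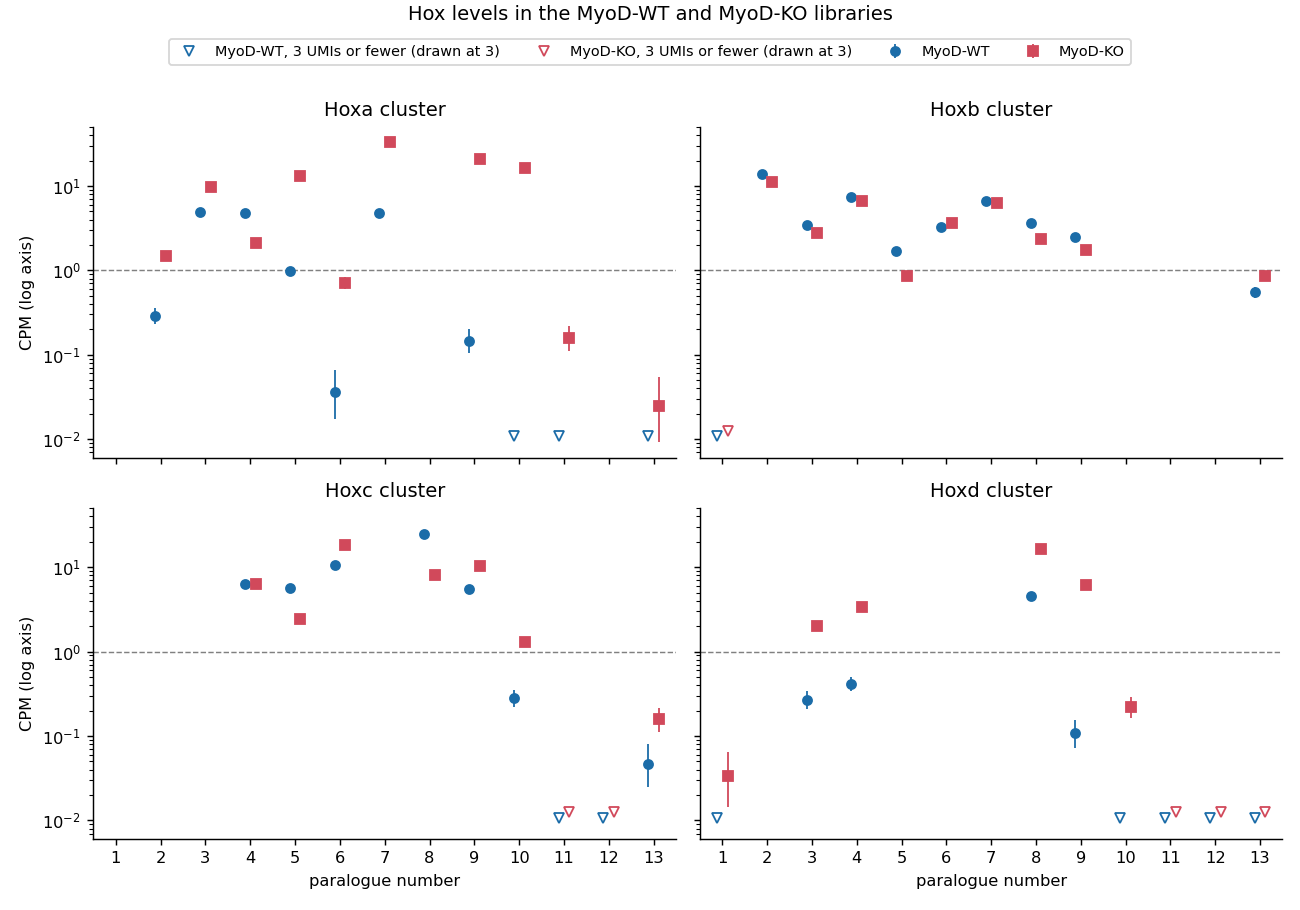
Level of 38 Hox genes (CPM, log axis) against its paralogue number, 1 panel per cluster, in the MyoD-WT (blue circles) and MyoD-KO (red squares) libraries; bars are exact Poisson 95% intervals, open triangles mark genes with 3 UMIs or fewer drawn at the level of 3 UMIs, and the dashed line is 1 CPM. The red squares stand above the blue circles from Hoxa5 to Hoxa10 and from Hoxd3 to Hoxd9, while the 8 Hoxb genes from Hoxb2 to Hoxb9 lie close together in both libraries.

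Within Hoxa the libraries differed most in the middle and 5′ end of the cluster. Hoxa5, which patterns the neck and upper trunk, stood at 0.971 CPM in MyoD-WT and 13.0 CPM in MyoD-KO, 13.4-fold higher (11.8 to 15.2). Hoxa7, a gene of the thoracic region and the most abundant Hox transcript of MyoD-KO, stood at 4.76 and 32.8 CPM, 6.89-fold higher (6.50 to 7.31). The next genes of the cluster gave few UMIs in MyoD-WT. Hoxa9, known from the lower trunk, the limbs and blood stem cells, gave 41 UMIs (0.147 CPM) in MyoD-WT and 5009 UMIs (20.8 CPM) in MyoD-KO, a ratio of 141 (104 to 197). Hoxa10, which patterns the lumbar region and the uterus, gave 3 UMIs in MyoD-WT and 3877 UMIs (16.1 CPM) in MyoD-KO, a ratio of 1496 (512 to 7259). From Hoxa5 to Hoxa10 the 5 genes summed to 5.92 CPM in MyoD-WT and 83.4 CPM in MyoD-KO, 14.1-fold higher (13.4 to 14.8). Hoxa6 stayed under 1 CPM, with 0.0358 and 0.710 CPM.

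The 3′ end of Hoxa did not share one direction. Hoxa4 was lower in MyoD-KO, with 4.77 and 2.08 CPM, 2.29-fold (2.06 to 2.54). Hoxa2, which patterns the pharyngeal arches, was higher in MyoD-KO, with 0.290 and 1.48 CPM, 5.10-fold (4.00 to 6.58). Hoxa3 stood just under the 2-fold line at 4.97 and 9.80 CPM, a ratio of 1.97 (1.84 to 2.11). Moving from Hoxa4 to its neighbour Hoxa5, the ratio of MyoD-KO to MyoD-WT thus went from 0.437 to 13.4. The last genes of the cluster were near the detection limit: Hoxa11 gave 1 and 38 UMIs, and Hoxa13 gave 0 and 6.

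All 4 Hoxd genes that reached 1 CPM were higher in MyoD-KO. Hoxd8, a gene of the trunk, stood at 4.59 CPM in MyoD-WT and 16.5 CPM in MyoD-KO, 3.60-fold higher (3.38 to 3.84). Hoxd9, which acts with its paralogues in the lower trunk and the limb, gave 30 UMIs (0.108 CPM) in MyoD-WT and 1475 UMIs (6.12 CPM) in MyoD-KO, a ratio of 56.9 (39.7 to 84.7). Hoxd3 and Hoxd4, genes of the neck vertebrae, stood lower: Hoxd3 at 0.269 and 2.02 CPM, 7.52-fold (5.89 to 9.72), and Hoxd4 at 0.416 and 3.40 CPM, 8.17-fold (6.72 to 10.0). Exons of Hoxd3 and Hoxd4 overlap by 388 bases on the same strand in GENCODE M21 (GRCm38), so the split of counts between them is uncertain. The same holds for Hoxc5 and Hoxc10, with 166 shared bases. Hoxd10 gave 0 UMIs in MyoD-WT and 53 UMIs in MyoD-KO, at least 20.5-fold higher against a floor of 3 counts in the library, but its 0.220 CPM is under the 1 CPM minimum.

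The promoters of these 4 Hoxd genes are shown because all 4 stood higher in muscle-rich than in Pax7-positive cells of MyoD-KO, as described further on. The windows run from 250 bases before to 50 bases after the gene's start in RefSeq on GRCm38.p6, which is not the GRCm39 build named in the submitters' processing notes. All lie on the plus strand: Hoxd9 at chr2:74697513-74697812, Hoxd8 at chr2:74704365-74704664, Hoxd3 at chr2:74711743-74712042 and Hoxd4 at chr2:74721728-74722027. Capitals mark CANNTG, the E-box core bound by MyoD-family and many other basic helix-loop-helix factors, and the consensus of the muscle factor MEF2.
Hoxd9: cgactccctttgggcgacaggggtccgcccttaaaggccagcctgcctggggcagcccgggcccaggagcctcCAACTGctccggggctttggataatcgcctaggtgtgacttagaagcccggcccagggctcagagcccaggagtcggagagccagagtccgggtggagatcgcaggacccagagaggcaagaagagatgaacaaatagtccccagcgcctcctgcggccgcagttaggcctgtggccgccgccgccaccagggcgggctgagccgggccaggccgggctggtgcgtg
Hoxd8: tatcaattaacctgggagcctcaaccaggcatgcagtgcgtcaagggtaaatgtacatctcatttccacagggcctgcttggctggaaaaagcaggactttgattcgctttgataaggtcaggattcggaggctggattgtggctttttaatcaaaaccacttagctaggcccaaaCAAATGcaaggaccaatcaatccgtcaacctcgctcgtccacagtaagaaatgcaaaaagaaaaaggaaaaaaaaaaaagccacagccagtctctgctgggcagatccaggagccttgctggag
Hoxd3: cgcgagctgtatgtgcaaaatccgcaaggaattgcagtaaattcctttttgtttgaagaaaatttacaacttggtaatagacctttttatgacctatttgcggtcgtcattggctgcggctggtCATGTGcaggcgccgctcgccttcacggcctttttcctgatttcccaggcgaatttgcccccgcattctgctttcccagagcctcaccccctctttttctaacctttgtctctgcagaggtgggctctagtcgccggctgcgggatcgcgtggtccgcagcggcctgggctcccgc
Hoxd4: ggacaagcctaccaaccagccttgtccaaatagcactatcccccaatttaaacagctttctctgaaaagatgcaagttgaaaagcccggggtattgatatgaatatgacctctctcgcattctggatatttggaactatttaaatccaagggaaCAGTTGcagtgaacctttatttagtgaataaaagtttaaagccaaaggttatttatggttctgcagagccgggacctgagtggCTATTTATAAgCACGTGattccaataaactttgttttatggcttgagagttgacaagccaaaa

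CANNTG reads the same class on both strands and was found 1 time each in Hoxd9 (CAACTG), Hoxd8 (CAAATG) and Hoxd3 (CATGTG), and at 2 places in Hoxd4 (CAGTTG and CACGTG). At least 1 such match is present in 72.3% of the 32851 windows in the table. CAGCTG, 1 form of CANNTG, was in none of the 4 windows and is in 16.3% of the 32851. The MEF2 consensus, searched on both strands, matched only in Hoxd4, as CTATTTATAA ending 3 bases before the start, and is in 3.19% of the 32851. The windows held 20 CpG dinucleotides in Hoxd3 and in Hoxd9, 6 in Hoxd8 and 4 in Hoxd4, beside a median of 7 over all windows. A match describes the letters only. Of the 39 Hox genes, 22 matched the table by symbol.

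Hoxc held the most abundant Hox transcript of MyoD-WT and a pair of the genes that were lower in MyoD-KO. Hoxc8, a gene of the thoracic region and of brachial motor neurons, was the most abundant Hox transcript in MyoD-WT at 24.5 CPM and stood at 8.15 CPM in MyoD-KO, 3.01-fold lower (2.86 to 3.17). Hoxc5 was lower as well, with 5.66 and 2.42 CPM, 2.34-fold (2.13 to 2.58). The genes beside Hoxc8 differed in the other direction without passing 2-fold. Hoxc6 stood at 10.6 CPM in MyoD-WT and 18.1 CPM in MyoD-KO, a ratio of 1.71 (1.63 to 1.79), and Hoxc9 at 5.45 and 10.4 CPM, a ratio of 1.92 (1.80 to 2.04). Hoxc4 was at 6.35 and 6.28 CPM, a ratio of 0.989 (0.922 to 1.06). Hoxc10 passed the line at a low level, with 0.280 and 1.29 CPM, 4.60-fold higher (3.58 to 5.98), and shares exon bases with Hoxc5 as given above.

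Hoxb was the cluster whose genes differed least. All 8 Hoxb genes at 1 CPM or more lay under 2-fold, from 0.511 (0.432 to 0.603) for Hoxb5, with 1.69 and 0.863 CPM, to 1.14 (1.04 to 1.25) for Hoxb6, with 3.22 and 3.67 CPM. Hoxb2, which patterns the hindbrain, was the most abundant of the cluster, with 13.7 CPM in MyoD-WT and 11.2 CPM in MyoD-KO. Hoxb4, known from the neck region and from blood stem cells, followed with 7.42 and 6.66 CPM. Under TMM scaling Hoxb5 passed 2-fold and the other 7 did not.

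By paralogue number, the sums differed most in the higher numbers, carried mainly by Hoxa and Hoxd genes. Paralogue 9 summed to 8.18 CPM in MyoD-WT and 39.1 CPM in MyoD-KO, 4.78-fold higher (4.57 to 5.01). Within it Hoxa9 and Hoxd9 were higher in MyoD-KO and Hoxc9 was under 2-fold at a ratio of 1.92. Hoxb9 went the other way, with 2.48 and 1.75 CPM, a ratio of 0.705 (0.623 to 0.797). Paralogue 10 summed to 0.290 and 17.6 CPM, a ratio of 60.6 (48.7 to 76.5). Hoxa10 gave 3877 of the 4240 paralogue 10 UMIs of MyoD-KO. Paralogues 9 and 10 together made up 7.08% of Hox UMIs in MyoD-WT and 27.1% in MyoD-KO. Levels were low beyond paralogue 10 in both libraries. Paralogues 11 to 13 summed to 0.606 and 1.22 CPM, of which Hoxb13, a gene of the tail end, gave 0.548 and 0.863 CPM, and Hoxc12 and Hoxd12 had 0 UMIs in both libraries. At these depths 3 counts correspond to 0.0108 CPM in MyoD-WT and 0.0124 CPM in MyoD-KO. In paralogues 1 to 3 the sums were 25.2 and 27.9 CPM, a ratio of 1.11 (1.07 to 1.15). The 13 genes under 1 CPM in both libraries were Hoxa6, Hoxa11, Hoxa13, Hoxb1, Hoxb13, Hoxc11, Hoxc12, Hoxc13, Hoxd1 and Hoxd10 to Hoxd13.

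Cells of each library were then divided by their own transcripts, with no Hox gene in any rule. Cells with at least 1% of their UMIs in 27 genes of the contractile apparatus were called muscle-rich. Cells in which Crabp1 and Dcn summed to 100 CPM or more and at least 3 UMIs were called Crabp1/Dcn-positive, so either gene alone could suffice. Cells with Myog at 100 CPM or more and at least 3 UMIs were called Myog-positive. Those with Pax7 at 50 CPM or more and at least 2 UMIs were called Pax7-positive. Each cell took the first rule it met in that order. Myog marks committed myocytes, Pax7 marks progenitors, and Crabp1 and Dcn mark fibroblast-like cells. MyoD-WT had 4105 Pax7-positive, 1021 Myog-positive, 1457 muscle-rich and 7 Crabp1/Dcn-positive cells, and MyoD-KO had 2850, 939, 1196 and 163. These are ranges of a score, not types: within 2-fold of the rule's value lay 2037 and 1139 cells at the Pax7 rule, 788 and 710 at the Myog rule, and 521 and 251 at the muscle rule. The 7 Crabp1/Dcn-positive cells of MyoD-WT were not compared.

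The difference between libraries in Hoxa and Hoxd was present inside the Pax7-positive cells. There 11 of 26 Hox genes were higher in MyoD-KO and 5 were lower, beside 20.7% and 4.89% of 12500 genes. Hoxa9 stood at 0.0253 CPM (4 UMIs) in MyoD-WT and 25.8 CPM in MyoD-KO. Hoxa10 gave 0 UMIs in MyoD-WT and 19.8 CPM in MyoD-KO, at least 1043-fold higher against a floor of 3 counts in that cell group. Hoxa7 stood at 4.28 and 35.0 CPM and Hoxa5 at 1.15 and 16.6 CPM. Hoxd9 and Hoxd4 gave 0 UMIs in the Pax7-positive cells of MyoD-WT and 2.24 and 2.29 CPM in those of MyoD-KO, at least 118-fold and 120-fold higher. Fibroblast markers differed in the same cells: the sum of 11 such genes was 106 CPM in MyoD-WT and 549 CPM in MyoD-KO, with 3 and 5 of the 11 at 1 CPM or more and Lum at 0 in MyoD-WT. Markers of smooth muscle went the other way, with sums of 6 genes of 786 and 177 CPM and 4 of the 6 at 1 CPM or more in both. The sum of 7 committed myocyte markers was 564 and 2878 CPM, with 7 of 7 at 1 CPM or more in both. The sum of 6 neural and glial markers was 70.1 and 138 CPM, with 3 of 6 at 1 CPM or more in both and Sox2 at 0 in both; Map2 alone gave 64.3 and 134 CPM of it. The part of these sets in the Hox difference was not tested. With the Crabp1/Dcn-positive cells left out of both libraries, 11 Hox genes were higher and 4 lower. The shares over all genes were not computed for this choice of cells.

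In Myog-positive cells 8 of 23 Hox genes were higher in MyoD-KO and 4 lower, beside 18.8% and 4.61% of 12262 genes. In muscle-rich cells 10 of 25 were higher and 1 lower, beside 15.1% and 9.14% of 12239. The 2 libraries came closer in muscle-rich cells for Hoxc8, with 8.81 and 5.65 CPM, and for Hoxd8, with 20.5 and 36.6 CPM. In Pax7-positive cells the same genes stood at 31.7 and 9.25 CPM, and at 0.177 and 7.67 CPM. Cells that met no rule gave 12 higher and 3 lower of 26, beside 22.9% and 6.29% of 12623 genes, or 29.2% in either direction.

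Hoxd3, Hoxd4 and Hoxd8 stood higher in muscle-rich than in Pax7-positive cells of both libraries. In MyoD-WT 4 of 21 Hox genes were higher in muscle-rich cells (among them these 3), beside 13.7% of 12063 genes, and 11 were lower, beside 24.3%. In MyoD-KO 5 of 27 were higher (among them these 3 and Hoxd9), beside 12.5% of 12797 genes, and 5 were lower, beside 33.5%. The count of higher genes is thus near the share over all genes. The median log2 ratio of the Hox genes was -1.01 in MyoD-WT and -0.52 in MyoD-KO, beside -0.40 and -0.54 over all genes.

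Hoxd8 stood at 0.177 CPM in Pax7-positive, 0.271 CPM in Myog-positive and 20.5 CPM in muscle-rich cells of MyoD-WT, a ratio of measured muscle-rich to Pax7-positive levels of 115 (79.5 to 175). In MyoD-KO it stood at 7.67, 18.7 and 36.6 CPM, 4.77-fold higher (4.41 to 5.16), and at 14.6 CPM in Crabp1/Dcn-positive cells. Low in progenitors and high in muscle-rich cells was the order in both libraries, with a start that was far lower in MyoD-WT. Hoxd4 gave 0 UMIs in the Pax7-positive and Myog-positive cells of MyoD-WT and 1.91 CPM in its muscle-rich cells, at least 100-fold higher against 3 counts in the Pax7-positive cells. In MyoD-KO it stood at 2.29, 5.97 and 4.74 CPM, so the Myog-positive cells were highest. The MyoD-KO log2 ratios of muscle-rich to Pax7-positive cells were 1.05 for Hoxd4 and 1.07 for Hoxd3, close to the 2-fold line. With rules that let a cell count in several groups they came under the line at 0.81 and 0.78. Hoxd3 also came under it with the rule values doubled, at 0.99, and Hoxd4 with all deposited barcodes, at 0.96. Hoxd3 ran alongside, with 0.0127, 0.0493 and 1.16 CPM in MyoD-WT and 1.40, 3.16 and 2.93 CPM in MyoD-KO. Hoxd9 gave 0, 0 and 0.498 CPM in MyoD-WT and 2.24, 4.20 and 17.3 CPM in MyoD-KO, 7.72-fold higher in muscle-rich than in Pax7-positive cells of MyoD-KO (6.74 to 8.87).

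Free RNA in the droplets sets a limit to how low a level can be read. Acta1, the skeletal actin gene of differentiated muscle, stood at 57.5 CPM in Pax7-positive and 5878 CPM in muscle-rich cells of MyoD-WT, so the Pax7-positive level was 0.979% of the muscle-rich level (0.959 to 1.00). In MyoD-KO it was 204 and 15526 CPM, or 1.32% (1.30 to 1.33). Hoxd8 in Pax7-positive cells of MyoD-WT was at 0.866% (0.573 to 1.26) of its muscle-rich level, no higher than Acta1. Acta1 made by the Pax7-positive cells themselves was not separated from free RNA. Acta1 is also among the 27 genes of the muscle rule, which takes cells rich in them out of the Pax7-positive group. Its low percent is thus partly set by that rule and is no independent measure of free RNA. Whether the Hoxd8 UMIs of these cells are free RNA was not tested. If they are, the ratio of 115 is only a lower bound. In Pax7-positive cells of MyoD-KO Hoxd8 was at 21.0% (19.4 to 22.7), Hoxd9 at 13.0% (11.3 to 14.8) and Hoxd4 at 48.3% (40.6 to 57.4) of their muscle-rich levels, all above Acta1.

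**Figure D2:**
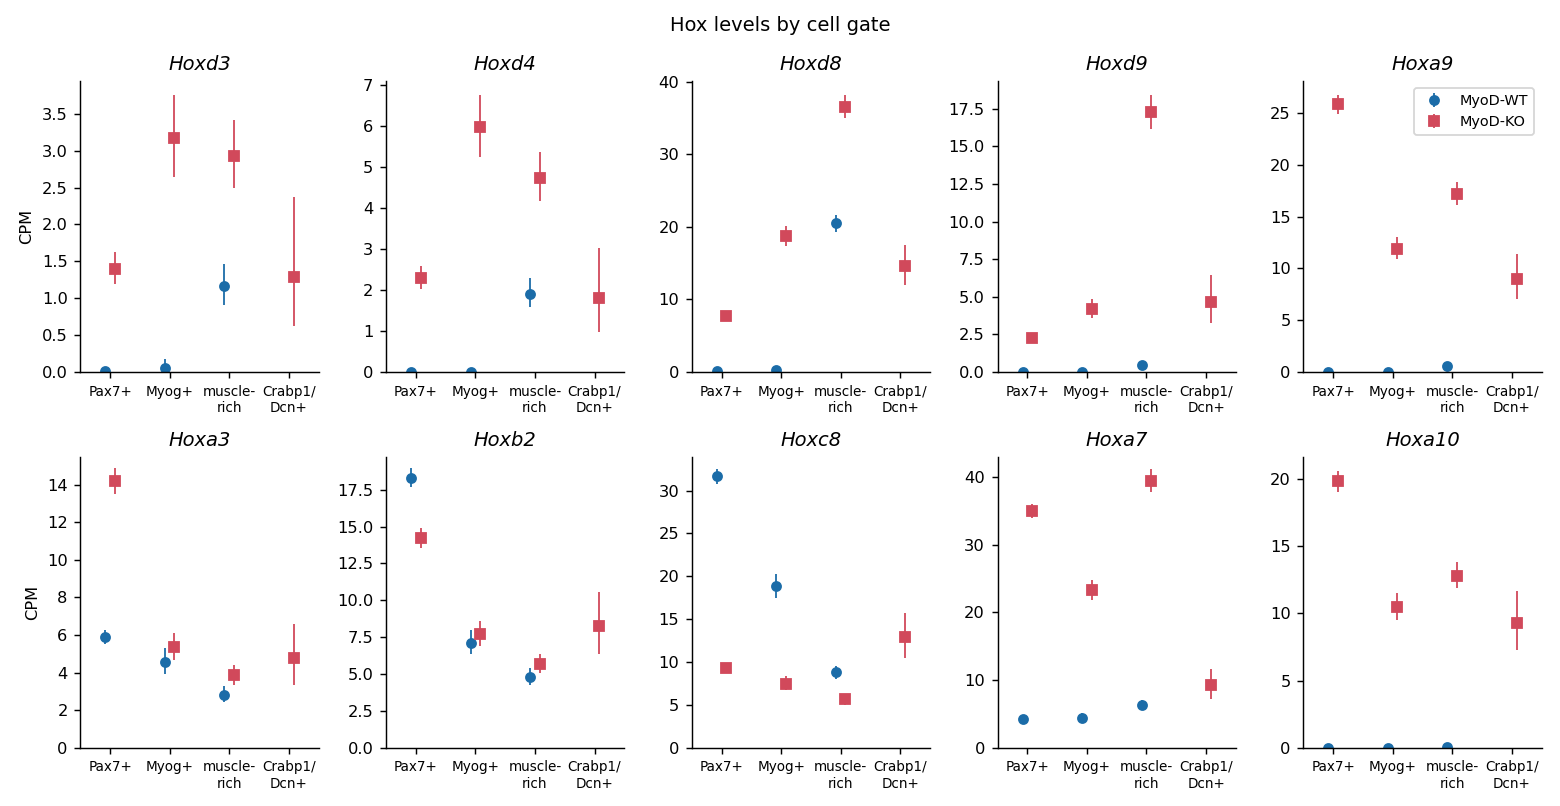
Level (CPM, linear axis from 0, scale set per gene) of 10 Hox genes in Pax7-positive, Myog-positive, muscle-rich and Crabp1/Dcn-positive cells of the MyoD-WT (blue circles) and MyoD-KO (red squares) libraries; bars are exact Poisson 95% intervals, and the 7 Crabp1/Dcn-positive cells of MyoD-WT are not drawn. Hoxd8 is highest in the muscle-rich cells of both libraries, Hoxc8 and Hoxb2 are highest in the Pax7-positive cells of MyoD-WT, and Hoxa10 is near 0 in every blue group.

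In MyoD-WT 11 of 21 Hox genes stood lower in muscle-rich than in Pax7-positive cells, beside 24.3% of all genes. In MyoD-KO 5 of 27 did, beside 33.5%. By highest cell group, 16 of the 21 Hox genes of MyoD-WT were highest in Pax7-positive cells and 5 in muscle-rich cells. In MyoD-KO, where Crabp1/Dcn-positive cells were also compared, 10 of 27 were highest in Pax7-positive, 9 in Crabp1/Dcn-positive, 6 in muscle-rich and 2 in Myog-positive cells. The highest group was not counted over all genes. Their median log2 ratios of muscle-rich to Pax7-positive cells were -0.40 in MyoD-WT and -0.54 in MyoD-KO. Hoxc8 stood at 31.7, 18.8 and 8.81 CPM in Pax7-positive, Myog-positive and muscle-rich cells of MyoD-WT, 3.60-fold lower in muscle-rich than in Pax7-positive cells, and at 9.25, 7.49 and 5.65 CPM in MyoD-KO. Hoxb2 stood at 18.3, 7.12 and 4.79 CPM in MyoD-WT and 14.2, 7.71 and 5.67 CPM in MyoD-KO, 3.82-fold and 2.51-fold lower in muscle-rich cells. Hoxb2, Hoxb5, Hoxb6 and Hoxa3 were the genes lower in the muscle-rich cells of both libraries. Hoxb5 stood at 2.37, 0.863 and 0.465 CPM in MyoD-WT and 1.15, 0.652 and 0.371 CPM in MyoD-KO. Hoxb4 went from 9.05 through 4.66 to 4.84 CPM in MyoD-WT and from 7.16 through 5.44 to 4.76 CPM in MyoD-KO. Hoxc5 was at 7.12, 5.22 and 2.22 CPM in MyoD-WT and 2.69, 1.88 and 1.87 CPM in MyoD-KO. Hoxc6 was at 12.6, 8.43 and 6.19 CPM in MyoD-WT and 21.4, 12.7 and 12.1 CPM in MyoD-KO. Hoxa4 stayed under 2-fold between these 3 groups, with 5.23, 5.13 and 3.48 CPM in MyoD-WT and 2.26, 1.91 and 1.95 CPM in MyoD-KO. In muscle-rich cells the muscle transcripts also take a larger part of all UMIs, a median of 5.87% in MyoD-WT and 9.48% in MyoD-KO. When the muscle genes were left out of the totals, Hoxa3, Hoxb8 and Hoxc6 of MyoD-WT came to lie under 2-fold and the same 5 genes of MyoD-KO stayed lower.

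The Hoxa genes that were high in MyoD-KO did not follow one order. Hoxa7 was at 35.0, 23.3 and 39.4 CPM in Pax7-positive, Myog-positive and muscle-rich cells of MyoD-KO, with its lowest level in the Myog-positive cells. Hoxa9 was at 25.8, 11.9 and 17.2 CPM, Hoxa10 at 19.8, 10.5 and 12.8 CPM and Hoxa5 at 16.6, 7.25 and 10.4 CPM, each highest in Pax7-positive cells of the library. In MyoD-WT Hoxa7 stood at 4.28, 4.41 and 6.35 CPM and Hoxa5 at 1.15, 0.715 and 0.630 CPM. Hoxa9 of MyoD-WT gave 4, 2 and 35 UMIs, or 0.0253, 0.0493 and 0.581 CPM. Hoxa10 of MyoD-WT stood at 0, 0 and 0.0332 CPM.

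**Figure D3:**
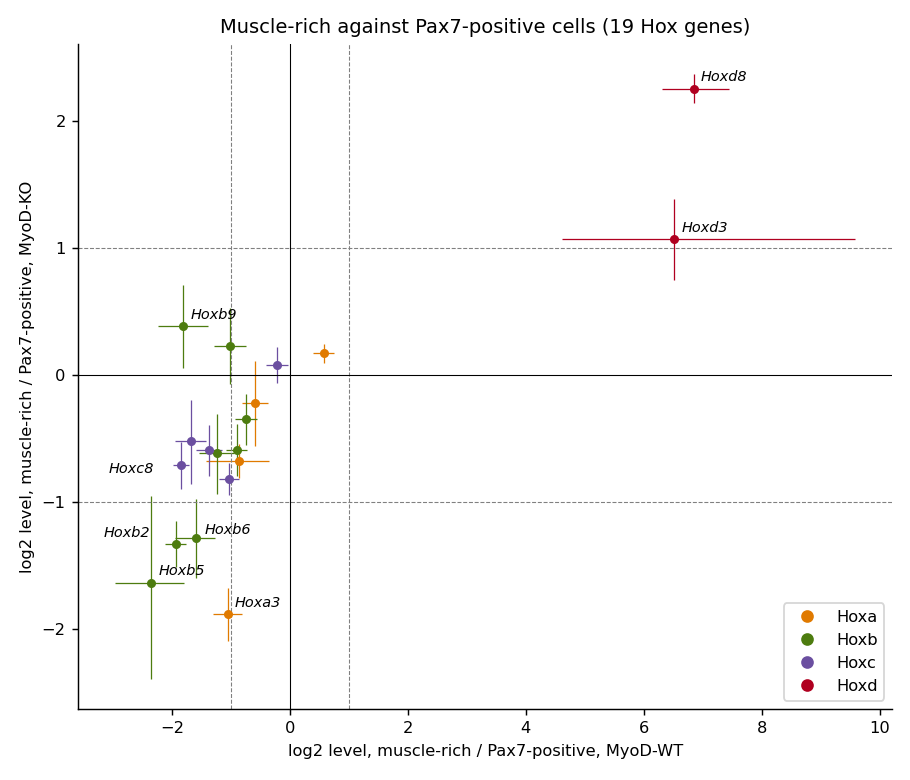
Log2 ratio of the level in muscle-rich cells to that in Pax7-positive cells, MyoD-WT on the x axis and MyoD-KO on the y axis, for 19 Hox genes at 1 CPM or more in either cell group of both libraries and with UMIs in every group; bars are 95% intervals and dashed lines mark 2-fold. Hoxd8 and Hoxd3 lie in the upper right corner, Hoxb2, Hoxb5, Hoxb6 and Hoxa3 in the lower left, and Hoxb9 alone is past 2-fold lower in MyoD-WT while above 0 in MyoD-KO with both intervals clear of 0.

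Myog-positive cells differed less from Pax7-positive cells. In MyoD-WT 0 of 18 Hox genes were higher, beside 4.37% of 11611 genes, and 4 were lower, beside 6.6%: Hoxb2, Hoxb3, Hoxb5 and Hoxb8. In MyoD-KO 3 of 25 were higher (Hoxd3, Hoxd4 and Hoxd8), beside 4.72% of 12483 genes, and 4 were lower (Hoxa2, Hoxa3, Hoxa5 and Hoxa9), beside 8.89%. The Hoxd sum was 0.190 and 0.320 CPM in Pax7-positive and Myog-positive cells of MyoD-WT, and 13.6 and 32.1 CPM in those of MyoD-KO. With the values of all 4 rules divided by 2 together, no Hox gene of either library was lower and 1 (Hoxd4 of MyoD-KO) was higher, and the share of all genes that were lower was 2.45% in MyoD-WT and 3.09% in MyoD-KO.

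The Crabp1/Dcn-positive cells had the lowest Hoxa sum of the 5 cell groups of MyoD-KO. Of 25 Hox genes, 7 were lower than in Pax7-positive cells, beside 20.9% of 12743 genes, and 2 were higher (Hoxb8 and Hoxd9), beside 12%, or 32.9% in either direction. The 7 were all the Hoxa genes measured there: Hoxa2, Hoxa3, Hoxa4, Hoxa5, Hoxa7, Hoxa9 and Hoxa10. The Hoxa sum was 40.5 CPM in these 163 cells and 117 CPM in Pax7-positive cells, a ratio of 0.345 (0.308 to 0.386), while the Hoxb sums were 46.0 and 41.8 CPM. Hoxa7 stood at 9.28 CPM, Hoxa9 at 9.03 CPM, Hoxa10 at 9.28 CPM, Hoxa5 at 5.42 CPM and Hoxa4 at 0.903 CPM. With rules that let a cell count in several groups, Hoxa10 (log2 ratio -0.97) and Hoxd9 (0.94) came under 2-fold. Hoxc6 was the most abundant Hox transcript of these cells at 33.0 CPM, 1.54-fold above the Pax7-positive level (1.35 to 1.76), Hoxb4 stood at 13.7 CPM and Hoxc8 at 12.9 CPM. Hoxb2 stood at 8.25 CPM, Hoxc5 at 5.16 CPM, Hoxb5 at 1.03 CPM, Hoxd9 at 4.64 CPM and Hoxd4 at 1.81 CPM. The fibroblast markers summed to 6505 CPM in these cells, with 9 of 11 at 1 CPM or more and Col1a2 at 0. The sums were 98.8 to 783 CPM in the other cell groups of MyoD-KO. Crabp1 and Dcn, which define these cells, are among the 11, and Crabp1 alone gave 4000 CPM. A high sum was therefore set by the rule and is no separate check of what these cells are. Of the 163 cells, 16 also met the Pax7 rule.

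To follow the levels without a single dividing line, cells were grouped by the share of their UMIs in the 27 muscle genes. The limits were chosen after the values were seen, and Crabp1/Dcn-positive cells were left out. Hoxd8 of MyoD-WT stood at 0.199 CPM in cells under 0.25%, 0.196 CPM at 0.25 to 0.5%, 0.431 CPM at 0.5 to 1%, 2.03 CPM at 1 to 2%, 14.4 CPM at 2 to 5%, 27.2 CPM at 5 to 10% and 43.4 CPM at 10% or more. In MyoD-KO the same groups held 9.75, 16.7, 20.1, 22.9, 21.7, 40.2 and 38.6 CPM. The MyoD-WT level thus met that of MyoD-KO in the cells with the most muscle transcripts, 43.4 (37.6 to 49.8) and 38.6 CPM (36.0 to 41.4). Hoxd9 did not: it reached 1.28 CPM in MyoD-WT and 21.3 CPM in MyoD-KO. Hoxc8 of MyoD-WT went from 30.4 CPM in the lowest group to 4.49 CPM in the highest, while in MyoD-KO it stayed between 3.68 and 9.11 CPM. Hoxa7 of MyoD-KO had its lowest level, 15.5 CPM, at 0.5 to 1% and its highest, 46.2 CPM, at 10% or more.

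**Figure D4:**
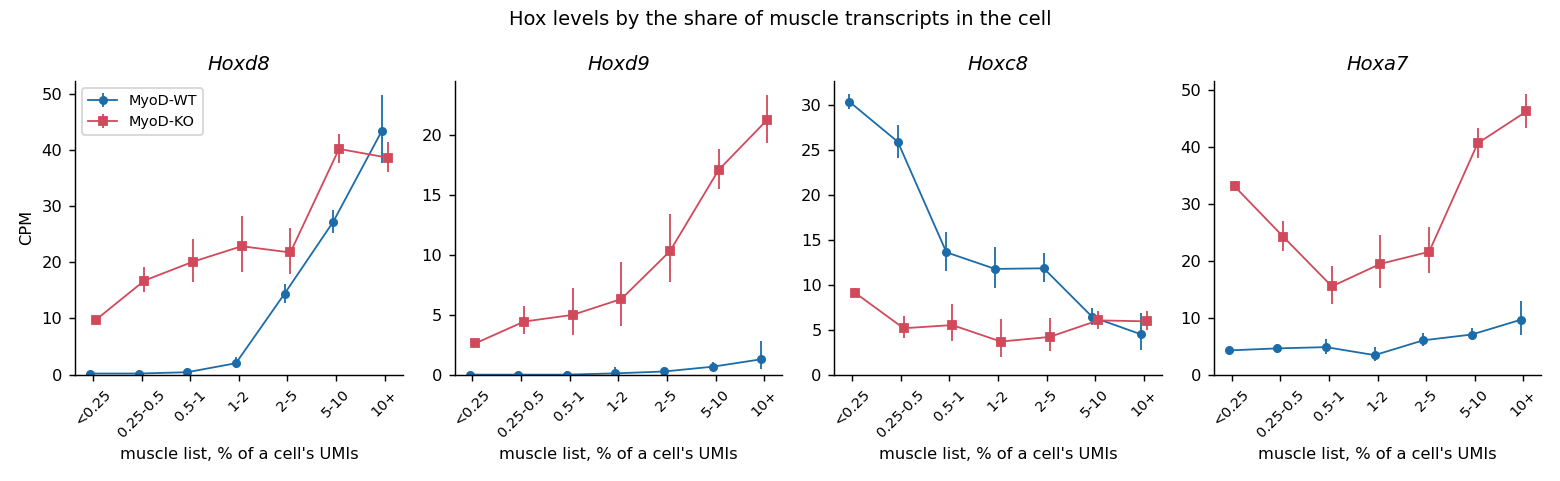
Level (CPM) of Hoxd8, Hoxd9, Hoxc8 and Hoxa7 in cells grouped by the percent of their UMIs in the 27-gene muscle list (unequal steps on the x axis), in MyoD-WT (blue circles) and MyoD-KO (red squares); bars are exact Poisson 95% intervals and lines join groups of 1 library. Crabp1/Dcn-positive cells are left out. Blue Hoxd8 climbs from 0.199 to 43.4 CPM and meets red, while blue Hoxd9 stays at or under 1.28 CPM.

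Single cells held few Hox UMIs. With each cell thinned to 5000 UMIs, at least 1 Hox UMI was found in 42.6% of 7236 MyoD-WT cells (41.5 to 43.8; 80 shallower cells left out) and in 62.7% of 5469 MyoD-KO cells (61.4 to 63.9; 169 left out). Without thinning the shares were 92.6% and 96.4%, with a median of 3 Hox genes per cell in MyoD-WT and 6 in MyoD-KO. Hoxa9 or Hoxa10 separated the libraries at the level of cells. In Pax7-positive cells thinned to 5000 UMIs, 0 of 4103 MyoD-WT cells had a UMI of either gene. A limit of 3 cells allows a share of up to 0.0731% with such a UMI, and the upper end of the exact interval is 0.0899%. Both hold for cells with a UMI at this thinned depth, not for cells expressing the genes. Of 2850 MyoD-KO cells, 19.5% had a UMI of either gene (18.1 to 21.0). Unthinned, the shares were 0.0974% and 76.4%, at median depths of 36106 and 39031.5 UMIs. In MyoD-KO the thinned share was 9.83% in Myog-positive, 14.6% in muscle-rich and 7.98% in Crabp1/Dcn-positive cells.

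Hoxd8 was found most often in muscle-rich cells. In MyoD-WT its thinned share was 0.0731% in Pax7-positive, 0.0979% in Myog-positive and 9.70% in muscle-rich cells (8.21 to 11.4), and in MyoD-KO 4.56%, 8.55% and 16.0% (13.9 to 18.4). Unthinned, the shares were 0.682%, 0.979% and 36.4% in MyoD-WT and 26.3%, 48.9% and 60.5% in MyoD-KO. Acta1 was found in 24.3% of thinned Pax7-positive and 94.2% of muscle-rich cells of MyoD-WT, and in 62.5% and 99.4% of MyoD-KO. Acta1 is abundant enough for such shares to saturate, so its share is not set against that of Hoxd8. Thinning left out 141 muscle-rich cells of MyoD-KO and 34 of MyoD-WT.

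Genes that work with, control or accompany Hox genes were read from lists; over all 12659 genes 19.4% were higher and 4.48% lower in MyoD-KO, with a median log2 ratio of 0.15. The TALE homeodomain proteins bind DNA together with Hox proteins: of 9 genes, 4 were higher in MyoD-KO and 0 lower, with a median log2 ratio of 0.52. Meis2 stood at 5.98 CPM in MyoD-WT and 69.9 CPM in MyoD-KO, Meis3 at 0.222 and 2.78 CPM and Pbx4 at 0.373 and 1.46 CPM. In muscle-rich cells 4 of 7 TALE genes of MyoD-WT and 6 of 9 of MyoD-KO were lower than in Pax7-positive cells, beside 24.3% and 33.5% of all genes. Of 22 Polycomb and Trithorax genes, which keep Hox clusters silent or active, 0 were higher and 1 was lower, Bmi1 with 51.1 and 25.2 CPM, and the median was -0.13. In muscle-rich cells 9 of 21 of them in MyoD-WT and 11 of 22 in MyoD-KO were lower than in Pax7-positive cells, beside the same 24.3% and 33.5%. None of the 6 Cdx and ParaHox genes reached 1 CPM, and Evx1 and Evx2, which stand next to the Hox genes in their clusters, had 0 UMIs.

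The shares over all genes, 19.4% higher and 4.48% lower with a median of 0.15, also stand beside the next 4 lists. Retinoic acid is a known inducer of 3′ Hox genes. Of 13 measured genes of its pathway, 5 were higher in MyoD-KO and 1 lower, with a median of 0.65: the binding proteins Crabp1 (0.735 and 135 CPM) and Crabp2 (4.08 and 42.6 CPM) and the degrading enzyme Cyp26b1 (0.398 and 8.76 CPM) were higher, and the retinol receptor Stra6 (2.44 and 0.270 CPM) was lower. Crabp1 was also used to define the Crabp1/Dcn-positive cells. In MyoD-KO it stood at 4000 CPM in those cells and 1.85 CPM in Pax7-positive cells, and Cyp26b1 at 196 and 1.22 CPM. Crabp2 went the other way, with 10.6 and 50.4 CPM. In Pax7-positive cells of MyoD-WT, Crabp1 stood at 0.00634 CPM and Cyp26b1 at 0.127 CPM. Among 14 measured genes of limb and trunk position, 5 were higher and 4 lower, with a median of -0.14. The trunk and limb muscle progenitor gene Pax3 gave 1 UMI in MyoD-WT and 3.79 CPM in MyoD-KO, a ratio of 1058 (189 to 41845), and the hindlimb gene Pitx1 gave 1 UMI and 2.94 CPM, a ratio of 821 (147 to 32470). Tbx4, another hindlimb gene, stood at 0.115 and 5.03 CPM, and the somite gene Meox1 at 3.10 and 0.241 CPM. Among 8 measured genes of head mesenchyme and head muscle, 3 were higher and 2 lower, with a median of 0.51. Alx1, a gene of the facial mesenchyme, stood at 86.1 CPM in MyoD-WT and 0.0166 CPM (4 UMIs) in MyoD-KO, the largest ratio of the list, and Msc, a gene of head muscle progenitors, at 52.7 and 12.8 CPM. Twist1 stood at 0.376 and 1.49 CPM and Isl1 at 9.29 and 19.8 CPM. Of the 27 muscle genes 8 were higher in MyoD-KO and 1 lower, with a median of 0.44: Mybpc2 stood at 0.233 and 5.41 CPM, Myh1 at 81.5 and 611 CPM, Ckm at 34.3 and 211 CPM and Myh4 at 13.5 and 73.1 CPM.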

How the data were processed

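Gene-by-cell matrices of raw UMI counts were deposited for each library, written by Cell Ranger 7.2.0 per the file headers; the submitters' processing notes list Cell Ranger, Seurat and GRCm39 but give them no role, and the annotation is not given in the sources used here. Whether counting used strand is not stated, so reads of antisense RNAs in the clusters cannot be told apart. Barcodes with fewer than 1000 genes (577 in MyoD-WT, 1111 in MyoD-KO) or over 15% mitochondrial UMIs (734 and 1187) were left out. Scrublet (scanpy 1.11.5, expected rate 0.06) then called 2 and 144 doublets. The 0.0273% called in MyoD-WT is far under the expected rate, so doublets may remain there, and the reason was not tested. Removing the 6% highest scores was an alternative. The filters took muscle-rich barcodes of MyoD-KO from 2899 to 1196. Counts were summed over cells and scaled to CPM (Python 3.11.15, numpy 2.4.6, scipy 1.17.1), with edgeR 4.0.16 TMM factors (R 4.3.3) as an alternative. Intervals are exact (Poisson, conditional for ratios, Clopper-Pearson for shares). The calling code was run on simulated Poisson counts with known fold changes. Such counts hold no variation between clones, libraries or cells, so they do not check the calls reported here. Every Hox gene at 1 CPM or more in either library is covered, some only within a count and range. For the 4 most abundant of each library and the 5 highest and 5 lowest ratios, values by cell group are given. These are values in Pax7-positive, Myog-positive and muscle-rich cells and in Crabp1/Dcn-positive cells of MyoD-KO, not in cells that met no rule. The list genes named are the up to 4 with the largest ratios. A gene of the clusters and a gene of another list are counted in the totals but their own values are not reported here. The members, lists and cell rules were chosen with earlier results of these data known.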

Additional observations from a re-analysis of the deposited data

Results flagged for a closer look

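Hoxb9, a gene of the thoracic region, went in opposite directions between cell groups in the 2 libraries. Its level in muscle-rich cells was 0.286 of the Pax7-positive level in MyoD-WT (0.212 to 0.380), with 0.896 and 3.13 CPM, and 1.30 of it in MyoD-KO (1.04 to 1.63), with 2.32 and 1.78 CPM. The difference between the libraries was not tested.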

How the results depend on the processing

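No paired analysis was possible because there is 1 library per genotype and the labels carry no replicate numbers; for the same reason no replicate could be left out. The median log2 ratio over all genes changed sign under TMM scaling, as given above. Single Hox genes were followed over the settings that changed cells, rules or scaling, not the minimum or the fold. Values with 0 UMIs on a side were left out. Of 95 values past 2-fold between the libraries 95 stayed past 2-fold. Of 264 such values between cell groups 264 kept their sign and 235 stayed past 2-fold. These settings share many of their cells, so the values are not independent checks. With a minimum of 10 CPM, 5 Hox genes were higher and 1 lower in MyoD-KO, and with a 4-fold line 1 was lower. The shares over all genes were not computed at these settings. The log2 ratios of MyoD-KO to MyoD-WT sums, 0.81 for all Hox genes, 2.40 for Hoxa, -0.23 for Hoxb, -0.18 for Hoxc and 2.39 for Hoxd, were 0.62, 2.21, -0.41, -0.36 and 2.21 under TMM scaling and 0.71, 2.68, -0.37, -0.31 and 6.16 in Pax7-positive cells alone; with all deposited barcodes, an alternative run also for the cell groups after the data were seen, the Hoxb value was -0.29, and as a mean over cells the Hoxc value was -0.14. For Myog-positive against Pax7-positive cells of MyoD-WT, lower Hox genes numbered 7 with rule values doubled and 0 halved, beside 8.33% and 2.45% of all genes. With overlapping rules they numbered 7, beside 10.8%, and 3 were higher, beside 9.95%. They numbered 7 without the 6% highest doublet scores, beside 7.99%, and 1 at a minimum of 10 CPM, beside 3.79%. In MyoD-KO they numbered 8 doubled and 0 halved, beside 13.0% and 3.09%. The higher Hox genes of MyoD-KO numbered 1 halved and 1 at 10 CPM, beside 3.07% and 4.07%. For muscle-rich cells of MyoD-WT a minimum of 10 CPM left 1 higher and 3 lower, beside 11.6% and 23.3% of all genes. For those of MyoD-KO it left 2 higher and 2 lower, beside 11.3% and 30.6%. Overlapping rules gave 3 higher in muscle-rich cells of MyoD-KO, beside 11.96%. In Crabp1/Dcn-positive cells overlapping rules gave 1 higher, beside 12.1% of all genes, and 10 CPM gave 0, beside 10.8%. The share of cells with a Hox UMI was 20.7%, 66.3% and 92.6% in MyoD-WT and 33.1%, 84.8% and 96.4% in MyoD-KO with thinning to 2000, to 10000 and none. At 10 CPM, 13 list genes in place of 25 were higher, with no share over all genes computed. The cause of these shifts was not tested. Depth limits the genes near 1 CPM, above all in the 163 Crabp1/Dcn-positive cells.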
